A study of Mus musculus with 9 samples.

Results

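The 10 genes described here form the core loop of the circadian clock: Arntl, Clock, Per1, Per2, Per3, Cry1, Cry2, Nr1d1, Nr1d2 and Dbp. They were chosen by symbol from the 55471 genes of the deposited tables, with earlier results of these data known, and all 10 passed the filter on low counts that left 15362 genes to test. RNA was sequenced from 9 cultures of primary mouse articular chondrocytes, the cells of joint cartilage, with 3 cultures in each of 3 groups. Ad-Control cells carried a control adenovirus. Ad-OSCAR cells carried an adenovirus that drives OSCAR, a collagen receptor, and Ad-OSCAR + 5-ASA cells carried the same virus and received 5-aminosalicylic acid (5-ASA, mesalamine). The cells came from femoral condyles and tibial plateaus of wild-type pups, aged 5 days in the labels and 4 to 5 days in the study's methods. Per the methods, every culture grew on plates coated with COLpep, a collagen peptide that OSCAR binds, and without IL-1β. For virus dose, the labels give a multiplicity of infection of 400 and the methods 800, in each case for 2 h. For the drug, the labels state a 36 h interval after infection before 5-ASA, and the methods state 10 µM for 24 h after infection. The methods give PBS as the solvent of 5-ASA in one place and DMSO as its vehicle in the general cell culture part. Whether the untreated cultures sequenced here received either is not stated. The time of day of each step and the hour of harvest are not given in the sources used here. One time point was taken, so a change in the level of a clock gene and a change in its phase cannot be told apart. The labels do not say that the 3 cultures of a group came from separate animals, so p-values measure the spread between these cultures, which may be technical.

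The mammalian clock is a loop of transcription and feedback that runs in most cells of the body, chondrocytes included. BMAL1, encoded by Arntl, pairs with CLOCK on E-box sequences and drives the Per, Cry, Nr1d1, Nr1d2 and Dbp genes. PER and CRY proteins return to the nucleus and hold BMAL1 and CLOCK back, while the NR1D1 and NR1D2 proteins (REV-ERBα and REV-ERBβ) repress Arntl itself through elements of their own. DBP is a transcription factor of the output arm that binds D-box sequences.

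Total estimated counts per culture ranged from 19733431 to 28192725. Oscar had 3 to 4 counts per culture in Ad-Control, 173445 to 187278 in Ad-OSCAR and 80766 to 94199 in Ad-OSCAR + 5-ASA, in the direction of the labels, and the level of Oscar itself fell by 0.97 on the log2 scale with 5-ASA (adjusted p = 1.76e-08). All 8 chondrocyte markers were detected in every group, but their summed level was 37900 to 43500 CPM (counts scaled to a common library size by TMM) in Ad-Control, 2350 to 2680 in Ad-OSCAR and 2810 to 3260 with 5-ASA. Of 8 macrophage markers, Adgre1, Ptprc, C1qa and Tyrobp had at most 3 counts in every culture, and the list summed to 5.59 to 7.61, 13.2 to 14.5 and 12.1 to 12.2 CPM in the same order. Endothelial markers summed to at most 2.8 CPM and skeletal muscle markers to at most 1.11 CPM in any culture. Fibroblast and synovium markers summed to 553 to 578, 1130 to 1140 and 1020 to 1080 CPM, but did not move together. In the same order, Prg4 had means of 247, 897 and 793 CPM, and Cd34 of 9.53, 12.4 and 15.9. Pdgfra (294, 221 and 230), Thy1 (14.1, 2.43 and 4.25) and Clec3b (0.789, 0.0121 and 0.0385) were lower with OSCAR, and Pi16 stayed at 0.0863, 0.148 and 0.165. Osteoblast markers summed to 58.3 to 66.4, 10.5 to 15.2 and 24.4 to 26.2 CPM. In bulk RNA, fewer cells of a type and less RNA per cell cannot be told apart, and the part of these shifts in the clock gene differences was not tested.

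All 10 clock genes were expressed at moderate levels. On the TPM scale, which divides by transcript length and so allows genes to be set against each other, the Ad-Control means ran from 3.72 ± 0.287 for Per2 to 26.3 ± 0.556 for Nr1d1 (SD, n = 3). In descending order, Nr1d1 and Nr1d2 (24.4 ± 1.57) led and had overlapping ranges, followed by Cry2 (18.6 ± 0.208), Per1 (17.2 ± 3.19) and Dbp (16.2 ± 0.859), where Per1 overlapped both of the others. Below them stood Clock (13.0 ± 0.758), Arntl (9.83 ± 0.83), Cry1 (8.0 ± 0.659), Per3 (7.11 ± 0.723) and Per2, and among these only Cry1 and Per3 overlapped. In Ad-OSCAR, Nr1d2 (35.9 ± 3.03 TPM) stood above Nr1d1 (29.8 ± 0.591 TPM) with no overlap, and Per3 (12.1 ± 0.286 TPM) had reached the levels of Arntl and Clock. With 5-ASA, Nr1d2 was again the highest (29.4 ± 1.46 TPM), and the next 3, Per1, Nr1d1 and Cry2, were between 20.2 and 18.8 TPM in their means and overlapped. Per2 was the lowest of the 10 in every group.

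**Figure D1:**
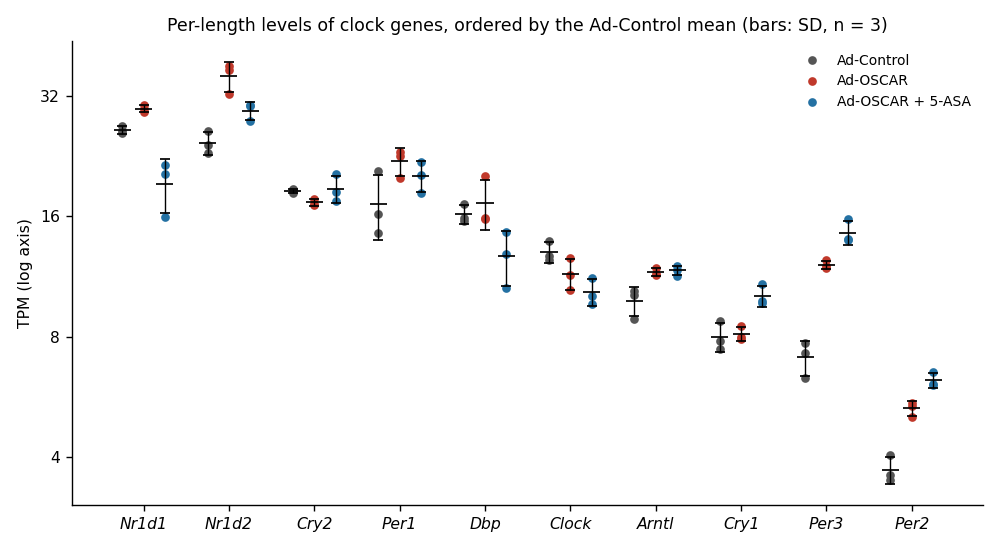
TPM of each clock gene (vertical log axis) in the 9 cultures, ordered by the Ad-Control mean, with points for cultures, lines for means and bars for SD (n = 3). Nr1d1 falls from 1st of 10 in Ad-Control to 3rd with 5-ASA, and Per3 rises from 9th to 5th.

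OSCAR overexpression was first set against the control virus. The 3 Per genes and Nr1d2 were higher in Ad-OSCAR cells, by 39.0% to 61.4%, and Arntl was higher by 17%. Clock and Cry2 were lower, by 11% and 8.09%. Cry1, Nr1d1 and Dbp did not pass the test. Thus 5 of 10 members rose and 2 fell (quasi-likelihood test of edgeR, p-values adjusted by Benjamini-Hochberg over 15362 genes, threshold 0.05), where 32.7% of all genes rose and 32.2% fell, so the members' total of 7 of 10 stood near the 65.0% of all genes called in either direction. Their changes were also small beside those of other genes: the median absolute log2 change was 0.20 for the members and 0.38 for all genes, and the signed medians were 0.18 and 0.02. No member met the study's own criteria of an absolute log2 change over 1.5 and an adjusted p under 0.05, which 9.96% of genes met. The CPM values of the groups did not overlap for 8 of 10 members, against 69.0% of all genes.

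**Figure D2:**
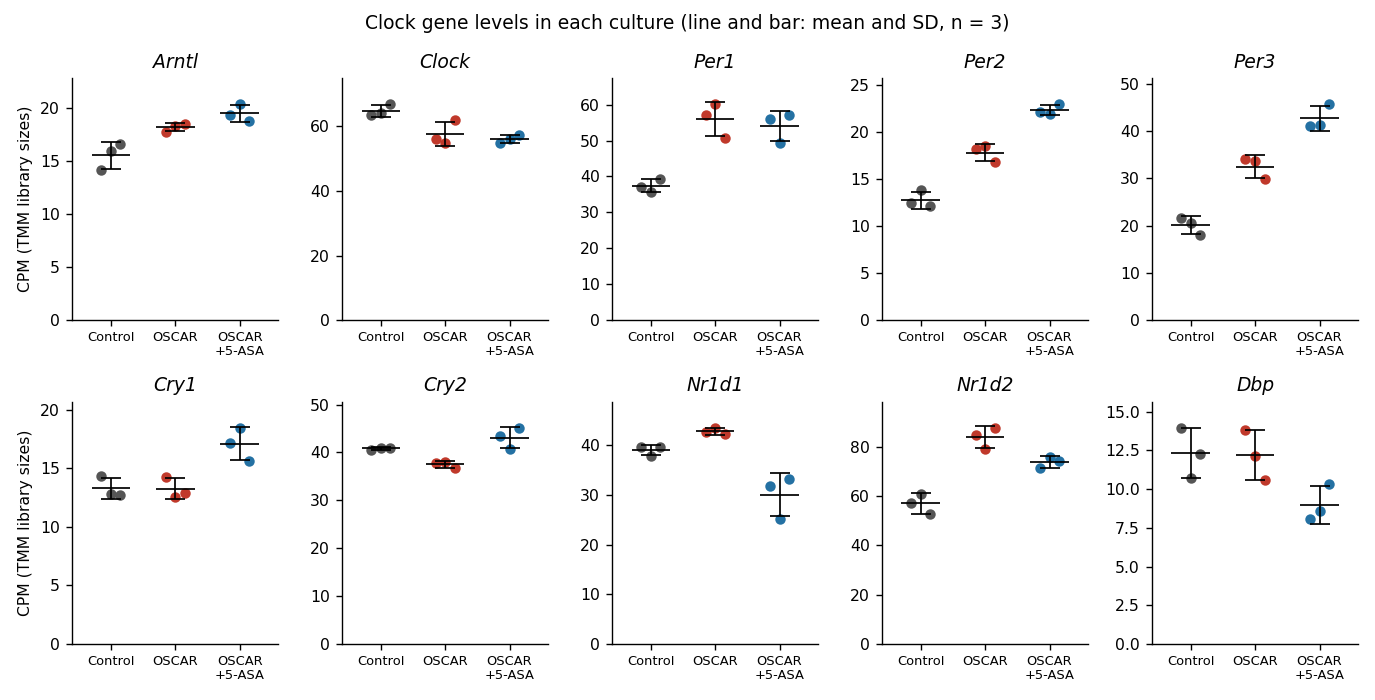
CPM of each clock gene (vertical axes from 0) in the 3 cultures of each group, with the mean and SD. The Ad-Control cultures of Per1, Per2, Per3 and Nr1d2 all lie below the Ad-OSCAR cultures, and those of Cry1 and Dbp overlap them.

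Among the activators, Arntl (chr7:113207465-113314126, plus strand, GRCm38) measured 14.2, 15.9 and 16.6 CPM in Ad-Control and 17.8, 18.3 and 18.5 CPM in Ad-OSCAR. The groups did not overlap, and Arntl rose by 0.23 ± 0.07 on the log2 scale (SE, adjusted p = 0.0106). Its call rested on 1 library, since without Ad-Control replicate 1, the lowest of the 9 cultures, the difference was 0.16 (adjusted p = 0.0801), and with DESeq2 it was 0.21 (adjusted p = 0.0535). Clock (chr5:76209868-76304792, minus strand), the partner of BMAL1, moved the other way, from 63.5, 64.1 and 67.0 CPM to 56.1, 55.0 and 62.0 CPM. It fell by 0.17 ± 0.05 (adjusted p = 0.00845), and lost the call without Ad-OSCAR replicate 1 (adjusted p = 0.051) and on the TPM scale (adjusted p = 0.129).

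In the negative limb the Per genes were higher and the Cry genes were not. Per3 (chr4:151003652-151044665, minus strand) measured 21.7, 20.6 and 17.9 CPM in Ad-Control and 34.1, 33.6 and 29.8 CPM in Ad-OSCAR. The highest control culture lay well below the lowest Ad-OSCAR culture, and the log2 difference was 0.69 ± 0.07 (adjusted p = 2.09e-07). PER3 is the PER family member that is least needed for the loop to run in most tissues. Per1 (chr11:69095217-69109960, plus strand), which also answers acutely to cAMP and glucocorticoid signals in many cells, measured 37.0, 35.8 and 39.4 CPM and then 57.1, 60.2 and 50.8 CPM. Its log2 difference was 0.59 ± 0.07 (adjusted p = 5.49e-07). Per2 (chr1:91415982-91459324, minus strand) rose from 12.4, 13.8 and 12.1 CPM to 18.2, 18.5 and 16.8 CPM, by 0.48 ± 0.07 on the log2 scale (adjusted p = 1.73e-05). All 3 Per calls held in every one of the 19 alternative analyses.

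The Per1 difference was smaller on the TPM scale, where it was 0.34 with each culture centered on its median gene (limma, adjusted p = 0.0396). The length that the authors' software assigned to Per1, weighted by the transcripts it found, was 4348, 3853 and 3305 bases in the Ad-Control cultures and 4348 to 4509 bases in the other 6. Ad-Control replicate 3, with the shortest, had 20.7 TPM of Per1 against 14.6 and 16.2 TPM in the other control cultures, while its 39.4 CPM stood beside 37.0 and 35.8 CPM in theirs.

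The Cry genes, whose proteins are the strongest repressors of BMAL1 and CLOCK, were not higher. Cry1 (chr10:85131700-85185064, minus strand) measured 14.3, 12.8 and 12.7 CPM in Ad-Control and 14.3, 12.5 and 12.9 CPM in Ad-OSCAR. These ranges were nearly the same, and the 95% interval of the log2 difference ran from -0.18 to 0.18. Cry2 (chr2:92403646-92434043, minus strand) moved from 40.5, 41.0 and 41.0 CPM to 37.9, 38.1 and 36.7 CPM. It fell by 0.12 ± 0.05 (adjusted p = 0.0443), and this call held in only 4 of 19 alternative analyses, with adjusted p from 0.0301 to 0.261.

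The stabilizing limb was split. Nr1d2 (chr14:18204054-18239127, minus strand) measured 57.3, 61.1 and 52.9 CPM in Ad-Control and 85.0, 79.2 and 87.9 CPM in Ad-OSCAR, without overlap, and rose by 0.56 ± 0.06 on the log2 scale (adjusted p = 9.5e-08). Nr1d1 (chr11:98767932-98775333, minus strand) measured 39.6, 37.9 and 39.7 CPM and then 42.7, 43.5 and 42.2 CPM. The groups did not overlap here either, but the log2 difference of 0.13 ± 0.07 did not pass (adjusted p = 0.12, 95% interval -0.02 to 0.29). It passed when the spread was estimated from these 2 groups alone (0.14, adjusted p = 0.0197) and without Ad-OSCAR + 5-ASA replicate 2 (0.13, adjusted p = 0.0204). Dbp (chr7:45705088-45710203, plus strand), the output gene, measured 14.0, 10.7 and 12.3 CPM in Ad-Control and 13.8, 12.1 and 10.6 CPM in Ad-OSCAR. Its ranges overlapped almost fully, and the 95% interval of the log2 difference was -0.26 to 0.23.

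**Figure D3:**
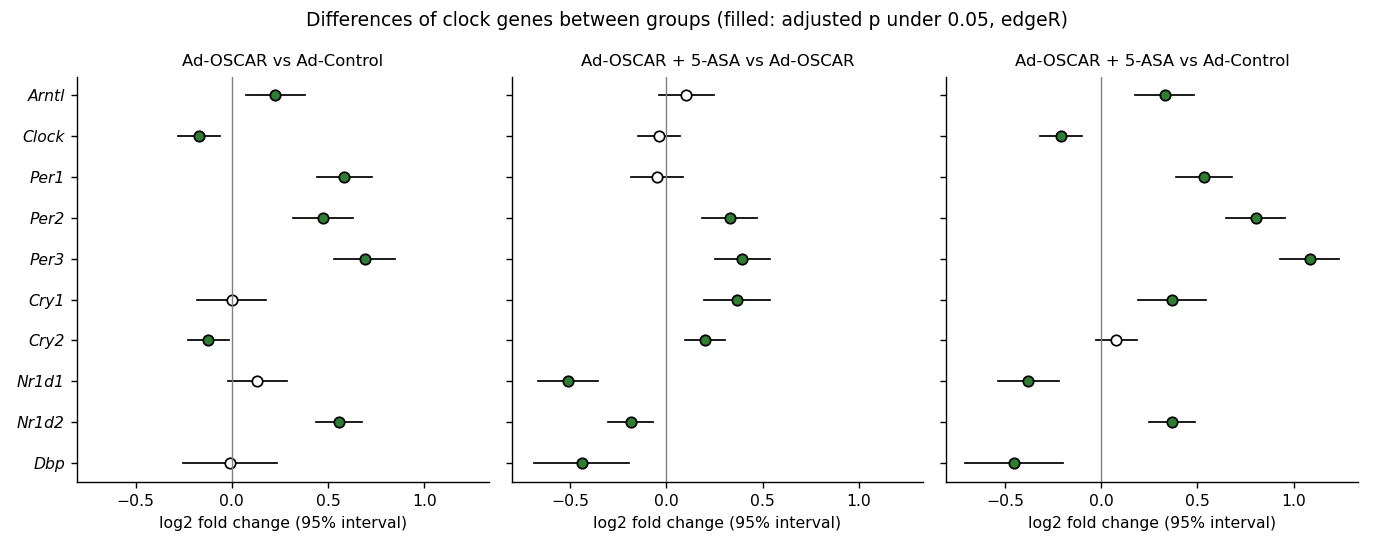
Log2 fold change of each clock gene (horizontal axis) with its 95% interval for the 3 comparisons, filled where the adjusted p was under 0.05. Per3 is farthest from 0 against Ad-Control, and Nr1d1, Nr1d2 and Dbp are the 3 genes left of 0 with a filled point in the 5-ASA comparison.

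Since CLOCK and BMAL1, DBP and the REV-ERB proteins act through short sequences near gene starts, the letters of their elements were looked up in the RefSeq promoter windows of GRCm38.p6, each from 250 bases before to 50 bases after a start. The table held 13 windows for 9 of the 10 members, and none was found for Per2. Both strands were searched for CACGTG (E-box), CACGTT (E-prime box), AGGTCA (the half-site of REV-ERB elements), TGACG (the core of a cAMP response element) and, added after the windows had been read, TTATGTAA or TTACGTAA (D-box). The letters of these 5 elements do not contain one another. Since a gene can have more than 1 window, shares are given over the 26994 genes that had any. CACGTG was in the windows of Per1 and Cry1, and in those of 8.09% of all genes. CACGTT was in those of Cry1, Cry2 and Nr1d1 (5.44% of all genes). AGGTCA was in those of Arntl, Clock, Per1 and Nr1d2 (18.1%), and TGACG in those of Per1, Cry1 and Cry2 (23.0%). The D-box letters were in the Per3 window only, at 2 places, and in those of 1.23% of all genes. No listed element was in the Dbp window.

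The stretches below show these elements in capitals, 5′ to 3′ on the strand of the gene, for the members whose levels differed most. For Per3, the gene with the largest difference, the 250 bases before the start (chr4:151044666-151044915, minus strand) hold the D-box letters at 205 and 158 bases before it:
Per3: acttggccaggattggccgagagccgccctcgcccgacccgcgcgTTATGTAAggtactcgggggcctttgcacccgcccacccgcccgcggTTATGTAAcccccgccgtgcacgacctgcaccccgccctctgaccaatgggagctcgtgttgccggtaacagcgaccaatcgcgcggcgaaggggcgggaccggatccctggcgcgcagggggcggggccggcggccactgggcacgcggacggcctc
For Per1, the 2 windows lie at different starts of the gene. Besides CACGTG, the first holds the reverse strand of AGGTCA at 137 and TGACG at 246 bases before its start, not printed here. Shown are CACGTG at 166 bases before the first start (chr11:69098771-69098800, plus strand) and TGACG at 132 bases before the second (chr11:69100008-69100036, plus strand):
Per1 E-box: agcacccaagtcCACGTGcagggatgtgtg
Per1 cAMP response element core: gagctcagcggcTGACGtcggtttccctg
For Cry1, which was among the genes that rose with 5-ASA, CACGTG stands 60 bases before the start (chr10:85185097-85185126, minus strand) and the reverse strand of CACGTT at 79 bases (chr10:85185116-85185145):
Cry1 E-box: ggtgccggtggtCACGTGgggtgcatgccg
Cry1 E-prime box: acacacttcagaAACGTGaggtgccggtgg
The 2 REV-ERB genes hold different elements, with the reverse strand of CACGTT at 28 bases before the start of Nr1d1 (chr11:98775388-98775417, minus strand) and AGGTCA at 77 bases before that of Nr1d2 (chr14:18239166-18239195, minus strand):
Nr1d1 E-prime box: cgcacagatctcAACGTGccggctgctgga
Nr1d2 half-site: gattggaagaagAGGTCAggaccgctcgtt
A match is a string of letters and not a bound site, and no binding was measured in these cells.

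The next comparison asked how 5-ASA moved the clock genes in Ad-OSCAR cells. Per2, Per3, Cry1 and Cry2 were higher with 5-ASA by 14.8% to 31.4%, and Nr1d1, Nr1d2 and Dbp were lower by 12.1% to 29.8%. CLOCK and BMAL1 drive the genes of both sets, and both sets hold repressors. Arntl, Clock and the third Per gene, Per1, did not pass the test. So 4 of 10 members rose and 3 fell, where 10.4% of all genes rose, 7.38% fell and 17.8% were called in either direction. The members' median absolute log2 change of 0.26 was above the 0.12 of all genes, while the signed medians were 0.03 and -0.00435. None had a fold over 1.5 in either direction with an unadjusted p under 0.05, as 4.15% of genes had, and 8 of 10 had no overlap in CPM between the groups, against 33.8% of all genes. This comparison shares the Ad-OSCAR cultures with the one before, so the values of both are given side by side and no relation between them was computed.

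The largest difference with 5-ASA was in Nr1d1, whose protein represses Arntl and binds heme. It measured 42.7, 43.5 and 42.2 CPM in Ad-OSCAR and 31.8, 25.2 and 33.2 CPM with 5-ASA. The treated cultures were lower than every culture of the other 2 groups and spread more widely, with replicate 2 the lowest. Nr1d1 fell by 0.51 ± 0.07 on the log2 scale (adjusted p = 7.8e-05), and this call held in all 19 alternative analyses, between -0.62 and -0.40 (adjusted p at most 0.00749). Nr1d2, which had risen with OSCAR, fell by 0.19 ± 0.06 (adjusted p = 0.025), from 85.0, 79.2 and 87.9 CPM to 71.3, 76.0 and 74.3 CPM. These groups stood close together, and the Nr1d2 call was lost without replicate 1 or 3 of either group (adjusted p 0.051 to 0.125).

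Dbp measured 13.8, 12.1 and 10.6 CPM in Ad-OSCAR and 8.04, 8.57 and 10.4 CPM with 5-ASA. The highest treated culture lay just under the lowest untreated one. Dbp fell by 0.44 ± 0.12 on the log2 scale (adjusted p = 0.0137), and lost the call without Ad-OSCAR replicate 1 (-0.34, adjusted p = 0.0934), Ad-OSCAR + 5-ASA replicate 1 (-0.37, adjusted p = 0.0803) or Ad-OSCAR + 5-ASA replicate 2 (-0.41, adjusted p = 0.0501). Without Ad-OSCAR replicate 1, or without Ad-OSCAR + 5-ASA replicate 1, Nr1d1 was the 1 member of the 3 that still passed.

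Among the Per and Cry genes, Per3 went on from 34.1, 33.6 and 29.8 CPM to 41.1, 41.3 and 45.7 CPM with 5-ASA, with no overlap. It rose by 0.39 ± 0.07 on the log2 scale (adjusted p = 4.38e-04). Per2 went from 18.2, 18.5 and 16.8 CPM to 22.2, 22 and 23.0 CPM, a rise of 0.33 ± 0.07 (adjusted p = 0.00209). Per2 and Per3 were thus lowest in Ad-Control and highest with 5-ASA, with no overlap between the 3 groups. Cry1, at 14.3, 12.5 and 12.9 CPM in Ad-OSCAR, measured 17.2, 18.5 and 15.7 CPM with 5-ASA and rose by 0.37 ± 0.08 (adjusted p = 0.00397). Cry2 rose from 37.9, 38.1 and 36.7 CPM to 43.4, 40.8 and 45.2 CPM, by 0.20 ± 0.05 (adjusted p = 0.00891). Its treated cultures overlapped those of Ad-Control.

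Per1 did not share this rise. It measured 57.1, 60.2 and 50.8 CPM in Ad-OSCAR and 55.9, 49.4 and 57.0 CPM with 5-ASA, and the 95% interval of the log2 difference was -0.19 to 0.09. Arntl measured 19.4, 20.4 and 18.8 CPM with 5-ASA, each above all Ad-OSCAR cultures, with a log2 difference of 0.10 ± 0.07 that did not pass (adjusted p = 0.341, 95% interval -0.04 to 0.25). Clock overlapped between the groups, at 55.0, 56.0 and 57.5 CPM with 5-ASA, and its interval was -0.15 to 0.07.

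The 4 rises with 5-ASA depended on the scale. In log2(TPM + 0.5) tested with limma, 0 of the 4 passed after adjustment, 3 had an unadjusted p under 0.05, and the differences were 0.21 for Per2, 0.26 for Per3, 0.30 for Cry1 and 0.11 for Cry2. On that scale the median gene was also lower with 5-ASA, by 0.09 in log2, against a shift of -0.00435 in the counts. With each culture centered on its median gene, an analysis added after these values had been seen, the differences were 0.31, 0.35, 0.39 and 0.20, and Per3 (adjusted p = 0.0278) and Cry1 (adjusted p = 0.0236) passed while Per2 (adjusted p = 0.0629) and Cry2 (adjusted p = 0.0732) did not. Nr1d1 passed on every scale. Among the lower genes the centered analysis left Nr1d2 at -0.19 (adjusted p = 0.113) and Dbp at -0.33 (adjusted p = 0.115).

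**Figure D4:**
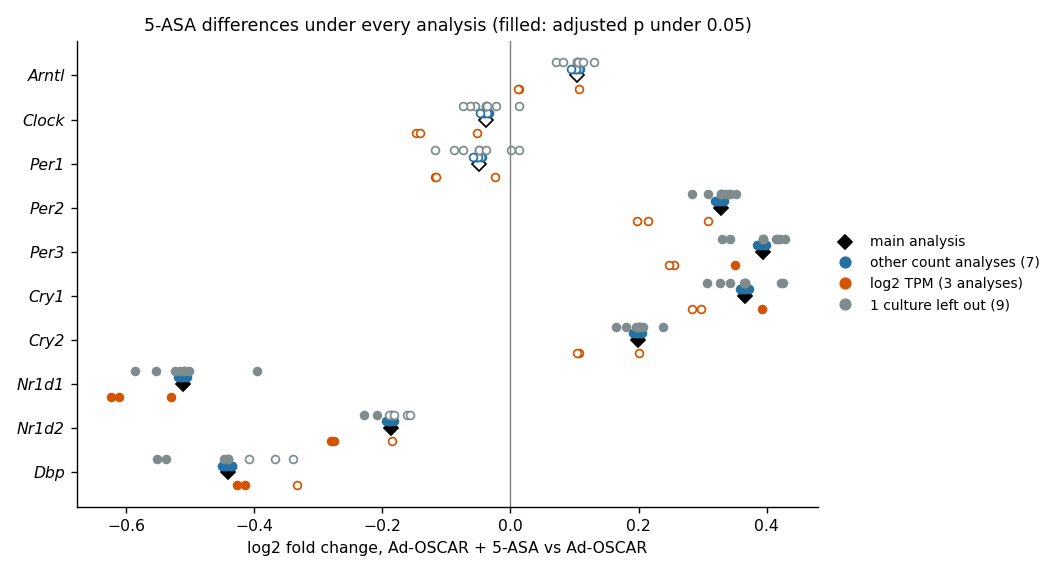
Log2 fold change with 5-ASA (horizontal axis) for each clock gene in the main analysis, in 7 other analyses of the counts, in 3 of log2 TPM and with each of the 9 cultures left out, filled where the adjusted p was under 0.05. The points of Nr1d1 are filled throughout, while those of Per2, Per3, Cry1 and Cry2 are open in 2 or 3 of the 3 TPM analyses.

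Set against Ad-Control, the treated cells differed in 9 of 10 clock genes. Per3 was 2.12-fold as high (log2 difference 1.08 ± 0.07, adjusted p = 3.34e-10) and Per2 1.75-fold (0.80 ± 0.07, adjusted p = 1.82e-08). Per1 (0.54), Nr1d2 (0.37), Cry1 (0.37) and Arntl (0.33) were also higher, with adjusted p between 1.97e-06 and 9.83e-04. Dbp (-0.45, adjusted p = 0.00342), Nr1d1 (-0.38, adjusted p = 2.75e-04) and Clock (-0.21, adjusted p = 0.00205) were lower. Cry2, with a 95% interval of -0.03 to 0.18, was not called. Thus 6 members rose and 3 fell, where 31.4% of all genes rose, 31.8% fell and 63.2% were called in either direction. The study's own criteria for 5-ASA, which its methods apply to treated cells against Ad-Control, were a fold over 1.5 in either direction with p under 0.05. With the edgeR values, 2 of 10 members, Per2 and Per3, met them, as did 29.9% of all genes (4592). The study reports far fewer genes for this comparison, so whether Per2 and Per3 met its own call is not settled here. Against Ad-OSCAR, 637 genes and 0 members met the same limits of fold and p. On the TPM scale Per1 no longer passed (0.24, adjusted p = 0.119), and on the centered TPM scale neither Per1 (adjusted p = 0.0541) nor Dbp (adjusted p = 0.0698) did.

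The E-box targets were also read against Arntl within each culture, since the 2 arms peak at opposite phases of the cycle. The log2 ratio of Nr1d1 to Arntl in TPM was 1.56, 1.34 and 1.37 in Ad-Control and 1.37, 1.41 and 1.29 in Ad-OSCAR. With 5-ASA it was 0.84, 0.40 and 0.88, below every other culture. The Dbp ratio went from means of 0.73 ± 0.20 and 0.56 ± 0.22 (SD, n = 3) to 0.11 ± 0.21 with 5-ASA. The Per3 ratio moved the other way, from -0.47 ± 0.23 in Ad-Control through 0.06 ± 0.06 in Ad-OSCAR to 0.31 ± 0.10 with 5-ASA. The Per2 ratio was likewise highest with 5-ASA, at -0.91 ± 0.07 against -1.40 ± 0.15 in Ad-Control. The Nr1d2 ratio was 1.31 ± 0.16 in Ad-Control, 1.62 ± 0.10 in Ad-OSCAR and 1.33 ± 0.04 with 5-ASA, and the Per1 ratio was 0.79 ± 0.17, 0.92 ± 0.15 and 0.78 ± 0.16, so that for both genes the cultures with 5-ASA overlapped those of Ad-Control. Relative to Arntl in TPM, genes that CLOCK and BMAL1 drive were thus lower, higher or at the Ad-Control level with 5-ASA. For Per1 this ratio includes the shorter lengths assigned in Ad-Control replicates 2 and 3. In counts, Per1 was 0.54 and Arntl 0.33 above Ad-Control on the log2 scale. These ratios are a description of 1 hour and were not tested.

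Both genes with the largest falls share exonic bases with a gene on the other strand. Nr1d1 overlaps Thra, a thyroid hormone receptor, over 263 exonic bases, and Dbp overlaps Sphk2, a sphingosine kinase, over 539. The authors' counts of Nr1d1 and Dbp were not whole numbers in all 9 cultures, and those of Cry2, which overlaps the transcript D930015M05Rik over 295 bases, in 7, while those of the other 7 members were whole in every culture. The libraries were made with a stranded kit, but whether the counting used strand is not stated, so reads from the shared bases may be split between partners. Thra went from a mean of 101 CPM in Ad-Control to 75.1 in Ad-OSCAR and 78.6 with 5-ASA, and did not pass the test with 5-ASA (0.06, adjusted p = 0.513) where Nr1d1 fell. Sphk2 went from 45.0 to 73.8 and 64.7 CPM, with a difference of -0.19 with 5-ASA (adjusted p = 0.0524). The part of these partners in the values of Nr1d1 and Dbp was not tested.

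Of 11 further clock transcription factors, 10 were tested, and their median absolute log2 change with OSCAR was 0.50, beside 0.20 for the core members. Npas2, a homolog of Clock that can take its place beside BMAL1, had the largest change, from 24.2 to 26.5 CPM in Ad-Control to 3.28 to 3.73 CPM in Ad-OSCAR, a fall of 2.87 ± 0.09 on the log2 scale (adjusted p = 6.04e-15). With 5-ASA it rose by 0.44 ± 0.11 (adjusted p = 0.00951), to 4.30 to 5.04 CPM. Ciart, a repressor of the loop also known as Chrono, fell by 1.3 ± 0.12 with OSCAR (adjusted p = 3.34e-08) and rose by 0.76 ± 0.13 with 5-ASA (adjusted p = 2.98e-04). In all, 3 of 10 rose and 3 fell with OSCAR, with a median log2 change of 0.10, and 5 rose with 5-ASA, with a median of 0.18, while the other 5 did not pass. The 6 of 10 called with OSCAR stood near the 65.0% of all genes, and the 5 of 10 that rose with 5-ASA stood beside 10.4% of all genes. The others called with OSCAR, named after their values were seen, were the repressors Bhlhe40 (0.82) and Cipc (0.43) and the activator Rora (0.16), which rose, and Bhlhe41 (-0.77), which fell. Rora (0.27), Nfil3 (0.26) and Bhlhe40 (0.14) completed the 5 that rose with 5-ASA. Bhlhe41, at -0.26 with 5-ASA, did not pass (adjusted p = 0.0653).

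**Figure D5:**
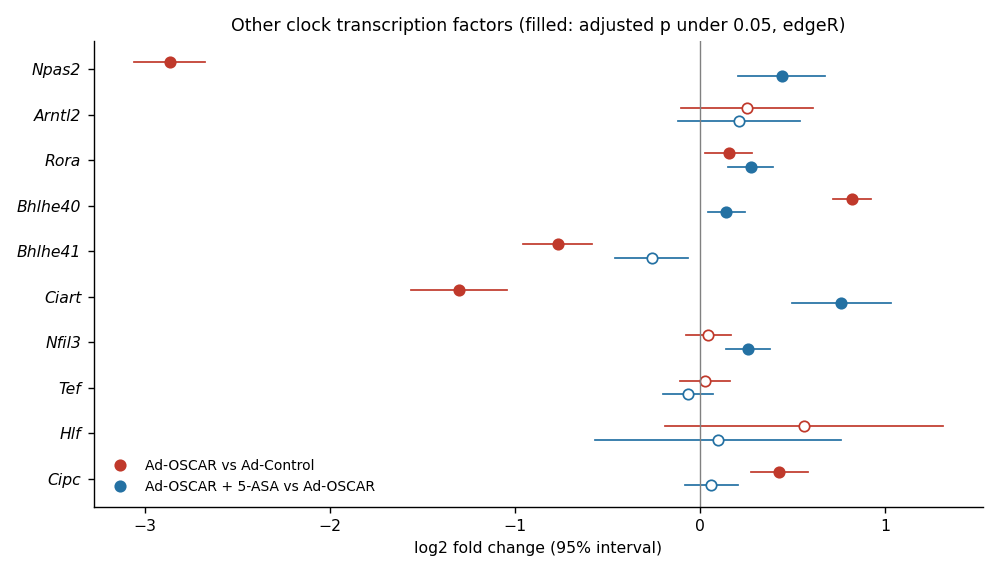
Log2 fold change (horizontal axis) with 95% interval of 10 further clock transcription factors with OSCAR against Ad-Control and with 5-ASA against Ad-OSCAR, filled where the adjusted p was under 0.05. Npas2 and Ciart lie left of 0 with OSCAR and right of 0 with 5-ASA.

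A further list held 18 kinases, ligases, cofactors and other genes tied to the clock, not all of which act on clock proteins. Of these, 9 rose and 4 fell with OSCAR, and 2 rose and 2 fell with 5-ASA, with median log2 changes of 0.13 and 0.04. The totals of 13 and 4 called were near the 65.0% and 17.8% of all genes. Usp2, a deubiquitinase that acts on clock proteins and is itself rhythmic, rose by 0.44 ± 0.13 with OSCAR (adjusted p = 0.007) and fell by 0.50 ± 0.13 with 5-ASA (adjusted p = 0.00974). Wee1, a cell cycle kinase with E-boxes in its promoter, fell in both, by 0.38 ± 0.09 (adjusted p = 0.00103) and 0.56 ± 0.10 (adjusted p = 3.75e-04). The 2 genes of this list that fell with 5-ASA, beside Nr1d1, Nr1d2 and Dbp, were thus Usp2 and Wee1. The other 2 that passed with 5-ASA, named after their values were seen, were Nampt (0.23) and Noct (0.34), which rose.

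Genes of 2 signals to which Per1 answers in other cells were listed too. Of 10 genes of the cAMP and CREB arm, 6 rose and 2 fell with OSCAR, with a median log2 change of 0.53, and 1 rose and 1 fell with 5-ASA. All genes were called at 65.0% with OSCAR (32.7% higher, 32.2% lower) and at 17.8% with 5-ASA, so 8 of 10 and 2 of 10 were not far from the background. Nr4a2 rose by 2.75 ± 0.06 on the log2 scale, Nr4a3 by 2.61 ± 0.15 and Nr4a1 by 2.32 ± 0.09 with OSCAR, each an early response nuclear receptor, and Crem, a CREB family member, by 1.41 ± 0.09 (adjusted p at most 7.32e-11). With 5-ASA the same 4 genes had differences of -0.10 to -0.22, none of which passed, as for Per1. Of 7 glucocorticoid receptor and target genes, 1 rose and 4 fell with OSCAR, with a median of -0.50, and 1 rose with 5-ASA, so that the totals of 5 of 7 and 1 of 7 were near the same shares of all genes. Fkbp5, a chaperone of the receptor, fell by 1.04 ± 0.09 (adjusted p = 6.48e-09) and stayed at 6.24 to 6.52 CPM with 5-ASA, while Tsc22d3, known as GILZ, fell by 0.51 ± 0.07 and then rose by 0.71 ± 0.07 (adjusted p = 6.09e-07). Against most called genes of their lists, Crtc3 and Srf of the cAMP and CREB list fell with OSCAR and Klf9 of the glucocorticoid list rose. These genes were named after their values were seen, and the part of either list in the level of Per1 was not tested.

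For the 2 members with the largest difference in each comparison, the 3 most alike of 13266 genes were found by Pearson's correlation of log2 CPM over the 9 cultures. For Per3 they were Clip1 (0.996), Fsd1 (0.994) and Dpysl3 (0.993), and 288 genes were over 0.95. For Nr1d1 they were Tyro3 (0.982), Pdrg1 (0.967) and Alas1 (0.967), and 6 genes were over 0.95. Such counts also depend on the spread within groups, which was wide for Nr1d1 with 5-ASA, and how common either pattern is was not tested. Alas1, the first enzyme of heme synthesis, differed by 0.11 with OSCAR and by -0.36 with 5-ASA. The correlations follow the 3 groups, within which the cultures share their treatment, and are a description.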

How the data were processed

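Per the methods and the labels, the authors made stranded mRNA libraries from total RNA, sequenced paired ends, trimmed reads with BBDuk, aligned them to GRCm38 with STAR 2.7.1a and counted with RSEM 1.3.1. The study's reporting summary also gives RSEM 1.3.1 for the raw counts but names another version for TPM, and the strand setting is not stated. The authors' deposited estimated counts are not scaled, and the authors' deposited TPM are scaled by transcript length and to the library. The deposited FPKM were not used here. Symbols and positions are from GENCODE M21 (GRCm38), matched for 55144 of 55471 genes.

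Expected counts were rounded, filtered with filterByExpr and fitted in 1 model of all 9 cultures with edgeR 4.0.16 (TMM, quasi-likelihood, 6 residual degrees of freedom), called at an adjusted p under 0.05. The 95% intervals are not adjusted. Alternatives used DESeq2 1.42.0, limma 3.58.1 on log2(TPM + 0.5) and log2(TPM + 1), other scalings and filters, a replicate block and each culture left out. Scripts were tested on simulated data. The members and gene lists were chosen with earlier results of these data known. Genes from the lists were named at a mean of at least 1 CPM and an absolute log2 change over 1 with OSCAR or 0.4 with 5-ASA, up to 5 per list, besides all members and Oscar. Same-numbered cultures did not deviate together (correlations -0.0724 to 0.0402 over 9 pairs), so numbers were not taken as pairs. One gene of the lists is not reported here.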

Additional observations from a re-analysis of the deposited data

How the results depend on the processing

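No clock gene reversed a call. The counts of members that rose with OSCAR and of members called against Ad-Control with 5-ASA stayed within 1.5 times under all 19 alternatives. Of the 2 members lower with OSCAR, 1 was left with DESeq2, with at least 10 counts in every culture, without a low-count filter and with upper-quartile scaling, 0 on the 3 TPM scales (limma, of which 1 had an unadjusted p under 0.05 on the centered scale), and 0 to 2 when a culture was left out. With the replicate number as a block, Clock was left and Cry2 lost the call (adjusted p = 0.0578), and the block changed no other call of a member. Of the 4 members higher with 5-ASA, 0 were left at log2(TPM + 0.5) and 0 at log2(TPM + 1), with 3 at an unadjusted p under 0.05, and 2 on the centered scale, which was chosen after seeing the data. Of the 3 lower, 1 was left on that scale and 1 to 3 when a culture was left out. Over all genes, 1598 rose with 5-ASA, against 561 at log2(TPM + 0.5), 562 at log2(TPM + 1) and 926 on the centered scale. In the other direction 1134 fell, against more at log2(TPM + 0.5), with 1467, and at log2(TPM + 1), with 1487, and fewer on the centered scale, with 452. There were 721 without Ad-OSCAR + 5-ASA replicate 1, 736 without Ad-OSCAR replicate 1, and up to 1127 when another culture was left out. Apart from fewer cultures, the causes of these differences between analyses were not tested. With 209 to 407 counts per culture for Dbp, the least counted member, intervals are widest there.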
